A study of Mus musculus with 21 samples.

Results

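Dexamethasone and tumour necrosis factor alpha were compared directly, after 24 h of treatment, in mouse fat cells grown in culture. The comparison rests on 6 of the 21 arrays of the series, chosen by their labels: 3 arrays labelled Dex at 24 h and 3 labelled TNF at 24 h. No control array entered the test. The cells were 3T3-L1 adipocytes, a mouse fibroblast line that can be turned into fat cells, differentiated for 14 days in every group. Dexamethasone (Dex), a synthetic glucocorticoid, was given at 20 nM, and TNF (tumour necrosis factor alpha) at a dose that the labels do not state. The vehicle is not stated either. The series also holds 3 arrays each of Dex and of TNF at 2 h and at 6 d, and 3 arrays of an untreated control at 0 h, which appear below as levels or in tests of the difference between times. All 7 groups come from 1 cell line, so the replicates, which the labels call biological, are cultures of that line. The stated aim was to follow gene expression over time as insulin resistance developed under either agent.

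Dex acts through the glucocorticoid receptor, a transcription factor that enters the nucleus once it has bound its ligand, induces genes near its binding sites and restrains many inflammatory genes. TNF acts through cell surface receptors that activate the IKK kinases, which release the transcription factor NF-kB from its inhibitors, and it secondarily induces interferon-responsive genes. Both agents are used to make cultured adipocytes resistant to insulin, although they are known for opposite actions on inflammation.

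Expression was read as deposited log2 values normalised by RMA, a method that puts all arrays on a common distribution. The median of all values on these 6 arrays was 5.32, and a gene was tested where at least 3 of the 6 arrays lay above it. That left 11591 of 18194 genes, with 1 probe set per gene. A gene could thus be tested through the arrays of 1 group alone, and list counts and medians include such genes. A level below 5.32 is called near background here, and a difference against such a level understates the true one. The 3 Dex arrays correlated with each other at 0.996 to 0.998, and TNF replicates 1 and 2 at 0.997. TNF replicate 3 stood apart: it correlated with its group mates at 0.988, and its Actb and Gapdh control probe sets were 0.683 log2 brighter at the 3′ end than at the 5′ end, against 0.0579 to 0.191 on the other 5 arrays. Counts without that array are given beside many of the results it touches.

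At 24 h, 3339 of 11591 genes (28.8%) differed between Dex and TNF at an adjusted p below 0.05 (limma, Benjamini-Hochberg over all genes tested, two-sided). Of these, 1694 (14.6%) were higher in Dex and 1645 (14.2%) were lower. The counts in gene lists below stand against these shares of all genes. The lists were chosen with earlier results of these data known, so their counts and medians describe these data and give no independent support. The median difference over all genes tested was 0.02 log2, and differences ranged from -9.15 to 7.71. Large differences leaned toward TNF: 611 genes (5.27%) were called and at least 2-fold lower in Dex, and 352 (3.04%) were called and at least 2-fold higher, together 963 (8.31%). At 8-fold or more the numbers were 88 lower in Dex and 21 higher. Without TNF replicate 3, 4997 genes were called (43.1%), 2787 higher in Dex (24.0%) and 2210 lower (19.1%). Of the 3339 calls, 3315 were among them in the same direction. Other settings lowered the count: to 2099 without Dex replicate 1, to 2148 without Dex replicate 2, and to 1610 (13.9%) with all 21 arrays in the fit, where 1574 of the 3339 calls were made in the same direction. The main test did not pair the arrays. With the arrays of the groups paired by replicate number, 3522 genes (30.4%) were called. In 5497 genes (47.4%) the 3 Dex arrays did not overlap the 3 TNF arrays. They include 3336 of the 3339 called genes, so a lack of overlap adds little to a call. Where a gene's RNA is lower in bulk cells, fewer cells that express it and less RNA per cell cannot be told apart.

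The genes furthest below TNF in Dex cells were chemokines, acute phase proteins, a complement factor and an NF-kB inhibitor. Ccl5, a chemokine that attracts T cells and monocytes, had the most negative difference of all genes tested. Its level was 5.47, 5.31 and 4.71 on the Dex arrays, against 14.25, 14.18 and 14.50 on the TNF arrays, and the untreated control averaged 5.20 ± 0.05 (SD, n = 3). The groups were far apart, with all Dex arrays at or near background, and the difference was -9.15 ± 0.20 log2 (SE; adjusted p = 1.79e-07). Cxcl9 and Cxcl10, ligands of the receptor CXCR3 on activated T cells, followed. Cxcl9 read 4.65, 4.46 and 4.08 in Dex and 12.78, 12.54 and 12.69 in TNF, a difference of -8.27 ± 0.16 on the probe set used. The other bright probe set of Cxcl9 gave -3.47. Cxcl10 read 4.95, 5.24 and 5.5 in Dex and 13.19, 13.09 and 12.42 in TNF, a difference of -7.67 ± 0.23. Neither pair of groups overlapped, which was a condition for the choice of the 12 most negative genes. Both Cxcl9 and Cxcl10 were near background in Dex cells. Ccl2, the main monocyte attractant made by fat cells, read 6.51, 6.33 and 6.36 in Dex and 14.07, 13.92 and 14.08 in TNF, with a control mean of 7.25 ± 0.36. It was therefore 197-fold lower in Dex than in TNF (-7.62 ± 0.10; adjusted p = 2.66e-08), with no overlap.

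**Figure D1:**
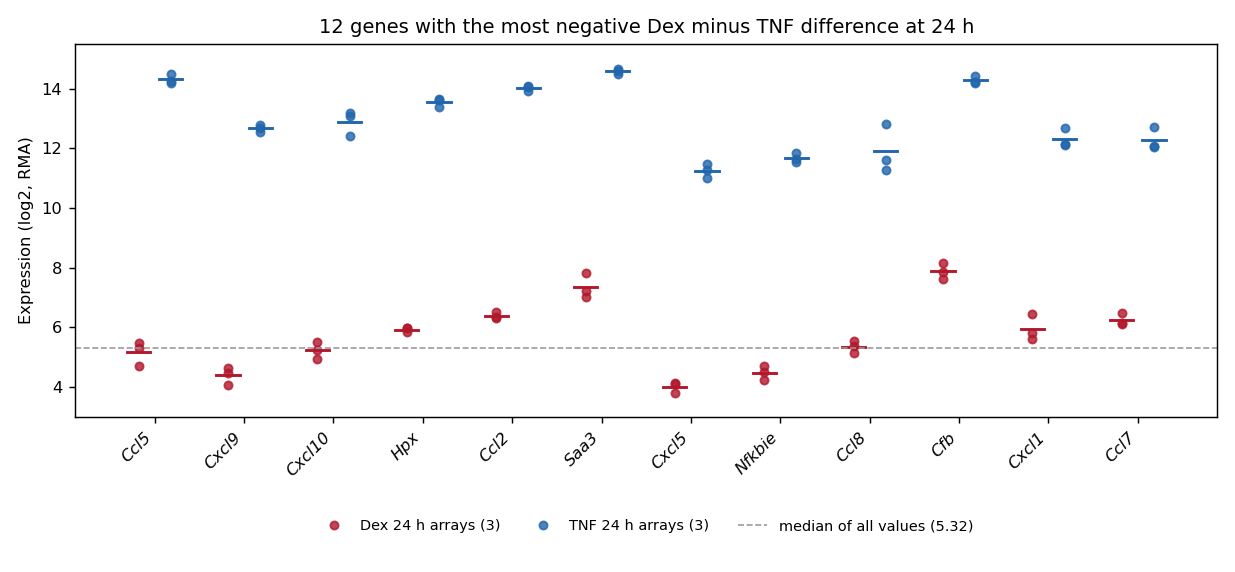
Log2 expression of the 12 genes with the most negative difference, on each of the 3 Dex arrays (red, left of each pair) and the 3 TNF arrays (blue, right); short bars are group means and the dashed line is the median of all values, 5.32. The 12 were chosen among called genes whose groups do not overlap. The Dex arrays of Ccl5, Cxcl9, Cxcl10, Cxcl5, Nfkbie and Ccl8 scatter around or below the dashed line.

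Of 18 tested chemokines, 16 were lower in Dex and 1, Ccl25, was higher, with a median difference of -4.59. Of the 26 with a probe set, 18 had means above 5.32 in TNF and 12 in Dex. Some tested members therefore passed the filter with Dex near background. The difference of Ccl25 was 0.38 ± 0.12 (adjusted p = 0.0499, and 5.32e-05 to 0.196 over all alternatives), and its call was lost when either Dex replicate 1 or 2, or TNF replicate 1 or 2, was left out, whereas the count of 16 was the same without any single array. The neutrophil attractants Cxcl1 and Cxcl5 differed by -6.37 ± 0.25 and -7.23 ± 0.16. The 2 other bright probe sets of Cxcl1 gave -5.36 and -1.89. Cxcl5 read 3.81, 4.10 and 4.15 in Dex and 11.49, 11.26 and 11.02 in TNF, with the control between them at 7.81 ± 0.10. Cxcl1 lay likewise below the control in Dex cells, at 5.60, 6.46 and 5.82, against 12.16, 12.11 and 12.70 in TNF cells and 7.53 ± 0.05 in the control. The monocyte attractants Ccl7 and Ccl8 differed by -6.02 ± 0.20 and -6.55 ± 0.35. Ccl8 was the most variable of these genes on the TNF arrays, at 11.62, 11.29 and 12.81, and still lay more than 5 log2 above its Dex values of 5.38, 5.54 and 5.15.

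The NF-kB pathway itself differed at the level of its own regulators. Among 15 tested NF-kB subunits and feedback inhibitors, 13 were lower in Dex and 0 higher, with a median of -1.45 (12 to 14 lower without any single array). The mean level of the list was 8.22, 8.24 and 8.24 on the Dex arrays and 10.09, 9.99 and 10.24 on the TNF arrays. Nfkbie, which encodes the inhibitor IkB-epsilon, read 4.70, 4.23 and 4.52 in Dex and 11.66, 11.53 and 11.85 in TNF (-7.20 ± 0.15), with Dex near background. The other bright probe set of Nfkbie gave -4.56. The subunit gene Relb differed by -3.47 ± 0.15, and Bcl3, a nuclear partner of NF-kB, by -3.44 ± 0.23. Tnfaip3, which encodes the deubiquitinase A20 that shuts off TNF receptor signalling, read 8.36, 8.49 and 8.28 in Dex and 11.09, 11.22 and 10.90 in TNF. Its difference was -2.69 ± 0.12 (adjusted p = 3.68e-06), and the control stood below both groups at 7.62 ± 0.22. The other bright probe set of Tnfaip3 gave -0.44. Nfkbia, the gene for IkB-alpha, is a target of both NF-kB and the glucocorticoid receptor. It read 12.87, 12.86 and 12.67 in Dex, 13.70, 13.71 and 13.78 in TNF and 11.78 ± 0.25 in the control, so that the difference between the agents was -0.93 ± 0.08 with both groups above the control mean.

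Upstream of NF-kB, 8 of 13 tested TNF receptors, adaptors and kinases were lower in Dex and 0 higher (1 without TNF replicate 3), with a median of -0.67. Ikbke, an inducible IKK-related kinase, read 7.13, 7.05 and 7.09 in Dex and 9.47, 9.17 and 9.24 in TNF (-2.21 ± 0.11). The kinase gene Map3k8 differed by -1.0 ± 0.13 and the adaptor gene Traf2 by -0.84 ± 0.13. Tnfrsf1b, the gene for TNF receptor 2, differed by -1.25 ± 0.17 on the probe set used, whereas its other bright probe set gave 0.26, so the probe sets of that gene disagree in sign.

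Promoter sequences from RefSeq (build GRCm38.p6) were searched on both strands, over the 250 bases before each gene's start, for 3 motifs. The letters of an NF-kB site were GGG, any 2 bases and TTTCC. Those of an interferon-stimulated response element were GAAA, any 2 bases and GAAA, and those of a glucocorticoid response element G, any base, ACA, any 3 bases, TGT, any base and C. No motif contains another. A promoter was matched for 9365 of the 11591 genes. The NF-kB letters were present in 22 of 485 matched genes (4.54%) that were called and at least 2-fold lower in Dex, in 2 of 275 (0.727%) that were called and at least 2-fold higher and in 168 of 9365 (1.79%) of all genes tested. The interferon letters were present in 46 (9.48%) of the lower genes, 9 (3.27%) of the higher and 287 (3.06%) of all. The glucocorticoid letters were present in 1 (0.206%) of the lower genes, 6 (2.18%) of the higher and 35 (0.374%) of all. These matches are a description of letters, not of bound sites, and glucocorticoid receptor sites often lie outside such a window. Windows are shown for 4 of the genes with large differences, 3 lower in Dex and 1 higher, because they hold these letters, with the matching letters in capitals and all read 5′ to 3′ on the gene's own strand. Cxcl1 is at chr5:90890995-90891244 on the plus strand, with NF-kB letters starting at -89, read on the opposite strand, and at -71 from the gene's start.
Cxcl1: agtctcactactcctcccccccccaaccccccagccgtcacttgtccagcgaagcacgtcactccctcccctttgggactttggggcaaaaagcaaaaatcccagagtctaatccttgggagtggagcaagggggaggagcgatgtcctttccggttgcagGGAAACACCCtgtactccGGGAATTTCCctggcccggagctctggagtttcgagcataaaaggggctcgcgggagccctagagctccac
Ifit1 is at chr19:34640639-34640888 on the plus strand, with interferon letters, read on the opposite strand, at -104 and -85.
Ifit1: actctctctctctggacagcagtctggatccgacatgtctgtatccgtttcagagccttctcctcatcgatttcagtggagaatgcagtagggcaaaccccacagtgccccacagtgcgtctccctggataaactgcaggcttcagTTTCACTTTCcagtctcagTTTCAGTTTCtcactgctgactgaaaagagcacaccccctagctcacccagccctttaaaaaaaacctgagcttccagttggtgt
Rsad2 is at chr12:26456453-26456702 on the minus strand, with interferon letters, read on the strand opposite to the gene's own, at -120.
Rsad2: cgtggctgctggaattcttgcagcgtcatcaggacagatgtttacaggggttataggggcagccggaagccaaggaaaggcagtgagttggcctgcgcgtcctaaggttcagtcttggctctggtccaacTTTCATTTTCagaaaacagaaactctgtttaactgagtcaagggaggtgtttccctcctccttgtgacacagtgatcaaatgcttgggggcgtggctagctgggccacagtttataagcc
Fam107a, which was higher in Dex, is at chr14:8309778-8310027 on the minus strand, with glucocorticoid letters at -120.
Fam107a: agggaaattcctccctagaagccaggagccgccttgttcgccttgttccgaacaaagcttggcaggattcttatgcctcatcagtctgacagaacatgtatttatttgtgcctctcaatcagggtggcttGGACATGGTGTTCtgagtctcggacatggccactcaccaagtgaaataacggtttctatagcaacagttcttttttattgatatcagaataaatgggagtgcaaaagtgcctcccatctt

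Interferon-responsive genes were lower in Dex almost as a block. Of 46 with a probe set, 44 had means above 5.32 in TNF and 38 in Dex. Of 43 tested, 42 were lower in Dex and 0 higher, with a median of -3.05, and 40 to 42 were lower without any single array. Irf5, which encodes an interferon regulatory factor, was the member not called (0.23), and it was called higher without TNF replicate 3 (adjusted p = 0.032; 0.000523 to 0.692 over all alternatives). Their mean level was 7.20, 7.41 and 7.34 on the Dex arrays, against 10.39, 10.41 and 10.06 on the TNF arrays and 7.82 to 7.96 on the control arrays. Ifit1, which binds foreign RNA, read 4.5, 5.35 and 5.39 in Dex and 10.88, 10.96 and 10.90 in TNF, a difference of -5.83 ± 0.23 that leaves no overlap. The control mean of Ifit1 was 6.94 ± 0.62, above all Dex arrays, and its Dex mean was near background. Zbp1, a sensor of Z-form nucleic acid, read 4.31, 4.89 and 4.92 in Dex, near background, and 10.21, 10.23 and 10.77 in TNF (-5.70 ± 0.22). The other bright probe set of Zbp1 gave -3.45. Oasl2, an oligoadenylate synthetase-like gene, and Tlr2, a receptor for bacterial lipoproteins, differed by -5.90 ± 0.20 and -5.87 ± 0.13. The Dex mean of Oasl2 was near background. Rsad2, the gene for the antiviral enzyme viperin, read 5.68, 5.85 and 5.90 in Dex and 10.61, 10.67 and 10.10 in TNF (-4.65 ± 0.17). The transcription factor gene Irf1 was high in both groups, at 10.12, 9.95 and 10.18 in Dex and 11.98, 11.87 and 11.86 in TNF. It differed by -1.81 ± 0.10 without overlap, and its control mean of 10.26 ± 0.18 was close to the Dex values. In the promoter windows, 14 of 30 matched interferon-responsive genes (46.7%) held the interferon letters, the list having been drawn from genes known to respond to interferon.

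Class I antigen presentation moved in the same direction. Of 18 tested members, 15 were lower in Dex and 0 higher, with a median of -1.40. Psmb8, Psmb9 and Psmb10, the inducible subunits that turn the proteasome into the immunoproteasome, differed by -5.88 ± 0.18, -4.49 ± 0.14 and -2.79 ± 0.09. Psmb8 read 6.01, 6.37 and 6.39 in Dex and 11.94, 11.95 and 12.51 in TNF. Tap1, a subunit of the transporter that carries peptides into the endoplasmic reticulum, read 5.48, 5.74 and 5.68 in Dex and 8.79, 8.94 and 8.98 in TNF (-3.27 ± 0.12). All 4 genes were separate between the groups on every array.

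Cytokines, growth factors and their receptors were mostly lower in Dex too. Of 35 cytokines, growth factors and receptors with a probe set, 27 had means above 5.32 in TNF and 20 in Dex. Among 27 tested, 17 were lower in Dex and 4 higher, with a median of -0.83. The 4 higher calls became 1 without any of the 3 Dex replicates in turn. Il6, a cytokine that drives the acute phase response, read 3.91, 3.75 and 3.82 in Dex and 8.25, 8.05 and 8.70 in TNF, a difference of -4.51 ± 0.17 with Dex near background. Csf1, which supports macrophage survival, read 8.90, 8.88 and 9.10 in Dex and 12.31, 11.94 and 12.66 in TNF (-3.34 ± 0.18), and the Dex values lay about the control mean of 8.92 ± 0.12. The receptor genes Osmr and Il13ra1 differed by -2.95 ± 0.17 and -3.42 ± 0.12, with Il13ra1 near background in Dex. The other bright probe set of Osmr gave -1.24.

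Acute phase proteins split into genes that were far apart and genes that both agents held high. Of 16 tested, 11 were lower in Dex and 1 higher, with a median of -0.91 (2 higher without TNF replicate 3 and 0 without Dex replicate 1, Dex replicate 2 or TNF replicate 1). Hpx, the haem carrier hemopexin, read 5.97, 5.97 and 5.84 in Dex and 13.66, 13.38 and 13.62 in TNF (-7.63 ± 0.11), and Saa3, a serum amyloid A gene expressed in adipocytes, 7.01, 7.21 and 7.83 in Dex and 14.61, 14.67 and 14.48 in TNF (-7.23 ± 0.20). Haptoglobin (Hp), by contrast, read 14.21, 14.21 and 14.22 in Dex and 14.83, 14.80 and 14.75 in TNF, with a control mean of 10.88 ± 0.10. The groups did not overlap and differed by -0.58 ± 0.06 (adjusted p = 0.000291), while both stood more than 3 log2 above the control. Lcn2, the iron-binding lipocalin 2, read 11.32, 11.38 and 11.17 in Dex and 10.73, 9.72 and 11.63 in TNF, against 5.36 ± 0.04 in the control. Its groups overlapped and the difference of 0.60 ± 0.41 was not called (adjusted p = 0.323). Without TNF replicate 3 it was 1.07 and called (adjusted p = 0.0109; 0.00162 to 0.776 over all alternatives). Serpina3n, a protease inhibitor gene, read 8.63, 8.63 and 8.49 in Dex and 9.21, 8.98 and 10.27 in TNF, a difference of -0.90 ± 0.30 (adjusted p = 0.0594). That value became -0.51 without TNF replicate 3 and was then called (adjusted p = 0.00419), and it was also called without TNF replicate 2, at -1.15 (0.0244; 5.3e-05 to 0.172 over all alternatives).

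Complement and adhesion genes gave smaller counts. Of 7 tested complement genes, 3 were lower in Dex (5 without TNF replicate 3) and 0 higher. Cfb, complement factor B of the alternative pathway, read 7.62, 7.86 and 8.16 in Dex and 14.42, 14.24 and 14.20 in TNF (-6.41 ± 0.14). C1ra and C1s1, the proteases of the first complement component, differed by -2.29 ± 0.13 and -2.28 ± 0.13. Of 16 adhesion molecules, 6 were lower in Dex and 0 higher (1 without Dex replicate 3, TNF replicate 2 or TNF replicate 3). Vcam1, which binds leukocytes, read 11.07, 11.11 and 10.92 in Dex and 13.51, 13.50 and 12.95 in TNF (-2.28 ± 0.16), and Dex was level with the control mean of 11.06 ± 0.18. The hyaluronan receptor gene Cd44 differed by -3.79 ± 0.15. Itgav, an integrin subunit, differed by -1.57 ± 0.10 on the probe set used and by 0.09 on its other bright probe set.

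On the other side, the genes highest in Dex relative to TNF included several that were near background in TNF cells. Ear3, a ribonuclease of the eosinophil-associated family, read 12.34, 12.26 and 12.45 in Dex and 4.51, 4.5 and 4.89 in TNF, with a control mean of 6.68 ± 0.37. The difference of 7.71 ± 0.14 (adjusted p = 9.14e-08) was the most positive of all genes tested, and near-identical members of that family could share its probes. Fam107a, a stress-responsive actin-associated protein, read 12.20, 12.15 and 12.03 in Dex and 5.44, 5.70 and 5.12 in TNF, a difference of 6.70 ± 0.16. The 2 other bright probe sets of Fam107a gave 3.91 and 5.23. Apoc3, an apolipoprotein that slows triglyceride clearance, read 12.29, 12.47 and 11.62 in Dex and 5.26, 6.14 and 5.74 in TNF (6.42 ± 0.28), and the control mean of 7.52 ± 0.34 lay between the groups. Cyp2e1, a cytochrome P450 that oxidises ethanol and small ketones, averaged 10.75 ± 0.22 in Dex and 4.72 ± 0.44 in TNF (SD, n = 3 each), a difference of 6.02 ± 0.22 (SE). None of these 4 genes overlapped between groups, which was a condition of their choice. Agt, the gene for angiotensinogen, was bright in both, at 14.33, 14.27 and 14.30 in Dex and 10.29, 10.33 and 9.87 in TNF (4.14 ± 0.13), around a control mean of 12.37 ± 0.07.

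**Figure D2:**
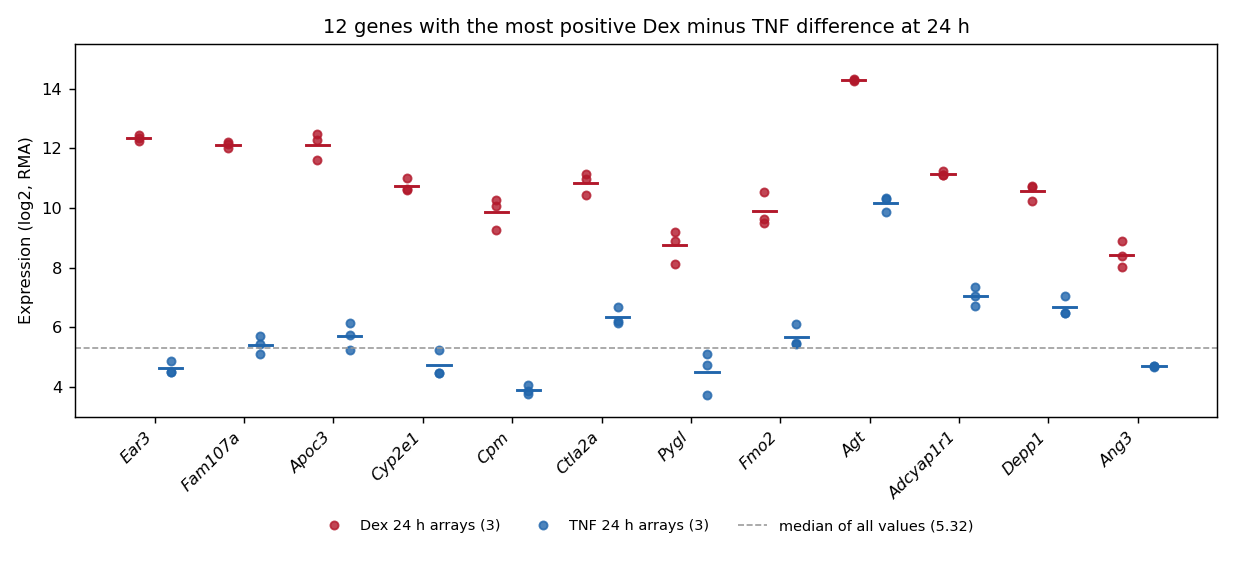
Log2 expression of the 12 genes with the most positive difference, on each of the 3 Dex arrays (red, left of each pair) and the 3 TNF arrays (blue, right); short bars are group means and the dashed line is the median of all values, 5.32. The 12 were chosen among called genes whose groups do not overlap. Ear3, Cpm, Cyp2e1, Pygl and Ang3 have TNF means below the dashed line.

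Members of a list of known glucocorticoid targets were higher in Dex in most cases. Earlier results of these data were known when the list was chosen, so its counts are descriptive. Of 33 tested, 23 were higher in Dex and 1, Nfkbia, was lower, with a median of 1.40, and 19 to 27 were higher without any single array. Without TNF replicate 3 the lower count was 4. Their mean level was 11.22, 11.22 and 11.14 on the Dex arrays, 9.69, 9.73 and 9.69 on the TNF arrays and 9.40 to 9.56 on the control arrays. Fkbp5, a co-chaperone that dampens the receptor, read 13.05, 13.03 and 13.10 in Dex and 9.62, 9.55 and 9.16 in TNF, a difference of 3.62 ± 0.13 (adjusted p = 1.75e-06), with the control at 8.99 ± 0.13. Tsc22d3, which encodes the anti-inflammatory protein GILZ, read 12.78, 12.78 and 12.73 in Dex and 10.37, 10.55 and 9.17 in TNF (2.73 ± 0.32). Its 3 other bright probe sets ranged from 0.11 to 3.54. Zbtb16, a zinc finger repressor, read 10.34, 10.23 and 10.10 in Dex and 7.72, 7.81 and 7.74 in TNF (2.47 ± 0.11). The groups were apart in all 3 genes, with TNF replicate 3 the lowest array for Fkbp5 and Tsc22d3. Cpm, a membrane carboxypeptidase, differed by 5.95 ± 0.24, and Mertk, a receptor for the clearance of dying cells, by 3.08 ± 0.11. The clock gene Per1 and the Kruppel-like factor gene Klf9 differed by 1.41 ± 0.19 and 1.31 ± 0.12, and Errfi1, an inhibitor of the EGF receptor, by 2.34 ± 0.14. In the promoter windows 5 of 29 matched members of this list (17.2%) held the glucocorticoid letters, which is likewise a description.

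The receptor itself went the other way. Nr3c1, the gene for the glucocorticoid receptor, read 10.47, 10.41 and 10.26 in Dex and 11.43, 11.39 and 10.80 in TNF, against 11.35 ± 0.09 in the control. It was lower in Dex by -0.83 ± 0.17 (adjusted p = 0.00929), a call that was lost with all 21 arrays in the fit (adjusted p = 0.251) and with the mean of all its probe sets (-0.65, 0.0639), within a range of 2.04e-08 to 0.251 over all alternatives. Hsd11b1, the enzyme that regenerates active glucocorticoid inside fat cells, read 12.31, 12.27 and 12.06 in Dex and 11.32, 11.73 and 10.59 in TNF. Its difference of 1.0 ± 0.26 (adjusted p = 0.0229) was lost when any Dex replicate or TNF replicate 1 was left out, at 0.95 to 1.07 with adjusted p between 0.0528 and 0.08. Alternatives ranged from 1.25e-06 to 0.08. Over the 10 tested receptors, chaperones and coactivators, 4 were higher in Dex and 1 lower, and 2 were higher without any one of the Dex replicates.

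**Figure D3:**
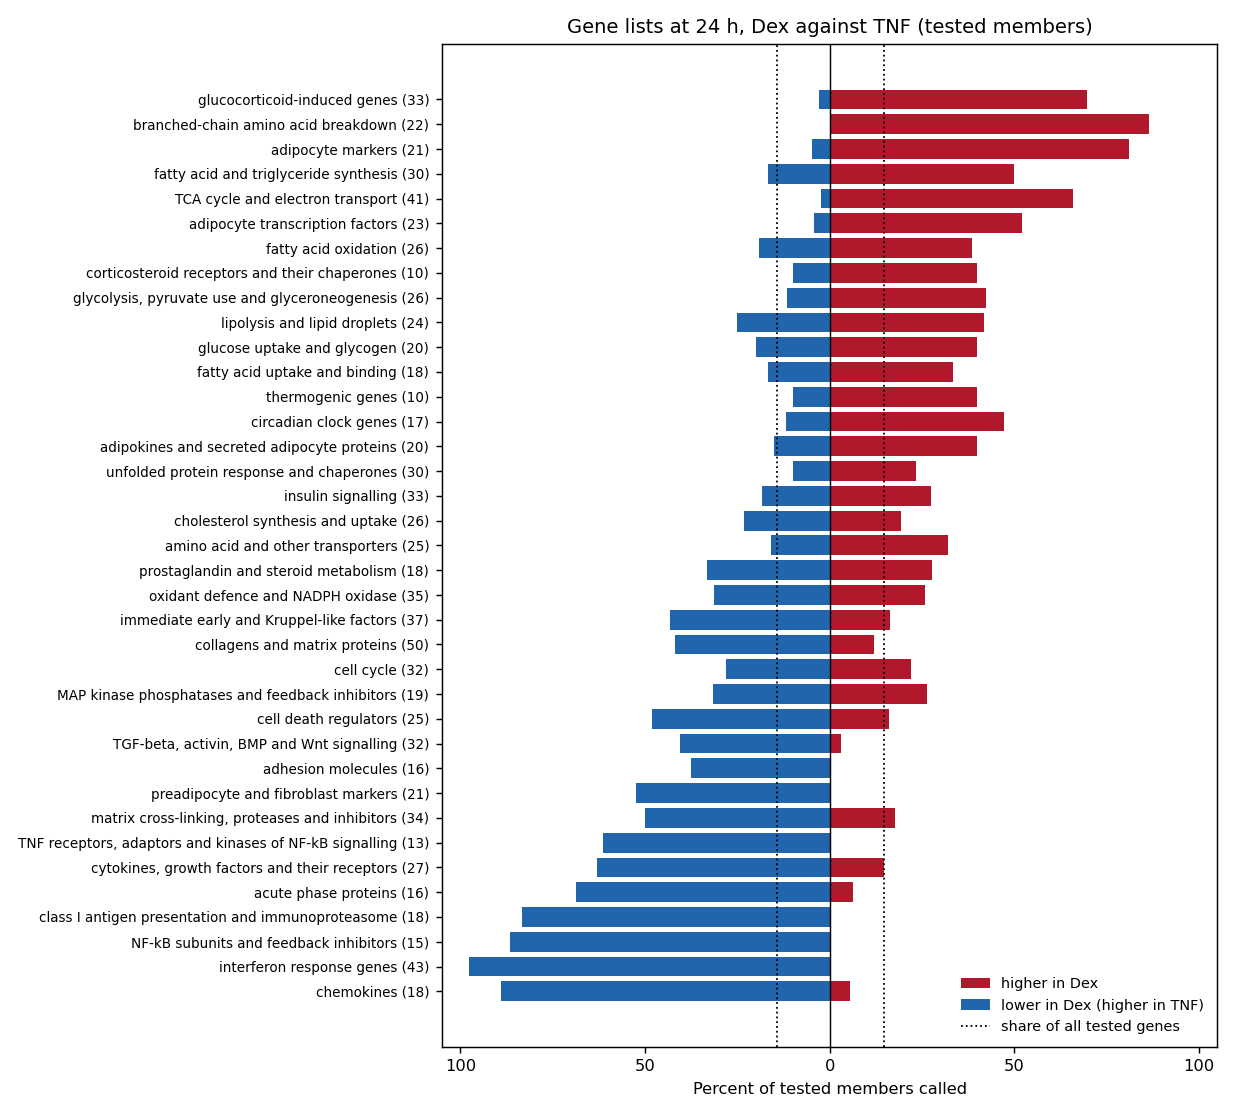
Percent of the tested members of each gene list (number tested in brackets) that were called higher in Dex (red, to the right) or lower in Dex (blue, to the left), for the lists with at least 10 tested members, ordered by median difference; dotted lines mark the share of all tested genes, 14.6% higher and 14.2% lower. Interferon-responsive genes (42 of 43) and chemokines (16 of 18) extend furthest to the left, and branched-chain amino acid breakdown (19 of 22) and adipocyte markers (17 of 21) furthest to the right.

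Markers of fat cells were bright in both groups, as their label calls for. Of 22 adipocyte markers with a probe set, 21 had a mean above 5.32 in Dex and 21 in TNF, with median levels of 12.44 and 11.30. Adipoq, the gene for adiponectin, read 14.72, 14.72 and 14.63 in Dex and 14.65, 14.73 and 14.48 in TNF. Those values overlapped near the top of the scale, where the highest value on these arrays was 15.0, and the difference of 0.07 ± 0.08 was not called. Most of the other markers were nevertheless higher in Dex: 17 of 21 tested were higher and 1, Car3, lower, with a median of 0.87, and the higher count became 11 without Dex replicate 1 or Dex replicate 2. Mean levels of the list were 12.28, 12.29 and 12.22 on the Dex arrays and 11.50, 11.61 and 11.19 on the TNF arrays, with TNF replicate 3 the lowest, and 12.31 to 12.40 on the control arrays.

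Among adipocyte transcription factors, 12 of 23 tested were higher in Dex (6 without Dex replicate 1) and 1, Klf4, lower (2 without TNF replicate 3), with a median of 0.45. Pparg, the master regulator of fat cell differentiation, read 12.82, 12.80 and 12.59 in Dex, 12.19, 12.32 and 11.75 in TNF and 12.72 ± 0.06 in the control. The groups did not overlap and differed by 0.64 ± 0.15 (adjusted p = 0.0157). That call was lost without Dex replicate 1 (0.60, 0.067) or Dex replicate 2 (0.61, 0.0635) and with all 21 arrays in the fit (0.29), while alternatives ranged from 7.37e-07 to 0.29. Cebpa, its partner in maintaining the adipocyte programme, read 10.24, 10.11 and 9.41 in Dex and 9.28, 9.12 and 8.76 in TNF. Its 0.87 ± 0.23 (adjusted p = 0.0269) was likewise lost without Dex replicate 1 (0.71, 0.102), Dex replicate 2 (0.78, 0.099) or TNF replicate 2 (0.90, 0.0512), and ranged from 7.23e-06 to 0.102. Cebpd, an early factor of differentiation that glucocorticoids induce, read 11.13, 11.11 and 11.01 in Dex and 9.71, 9.60 and 9.46 in TNF, both above the control mean of 8.44 ± 0.12, and differed by 1.49 ± 0.10. Ppargc1b, a coactivator of mitochondrial genes, differed by 1.23 ± 0.13.

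Secreted products of adipocytes were less uniform, with 8 of 20 tested higher in Dex, 3 lower and a median of 0.07 (0.13 without TNF replicate 3). Besides Agt, Retn (resistin) stood out at 14.01, 14.00 and 13.76 in Dex and 10.76, 11.20 and 10.43 in TNF, a difference of 3.13 ± 0.19 with no overlap and a control mean of 13.44 ± 0.28 on the Dex side. Nampt, which makes a precursor of NAD, differed by 1.78 ± 0.20, and Gas6, the ligand of Mertk, by 1.53 ± 0.14. The other bright probe set of Gas6 gave 0.28. Lpl, the lipoprotein lipase that frees fatty acids from circulating triglyceride, read 14.61, 14.66 and 14.71 in Dex and 14.48, 14.47 and 14.34 in TNF. That small difference of 0.23 ± 0.07 (adjusted p = 0.041) was lost with the replicate numbers as a block (0.0851), with the mean of its probe sets (0.46, 0.0535) and without any one array other than TNF replicate 3, at 0.20 to 0.26 with adjusted p up to 0.141. Alternatives ranged from 0.00124 to 0.141.

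Markers of other cells were set beside these. Of 21 tested markers of preadipocytes and fibroblasts, 11 were lower in Dex and 0 higher (2 without TNF replicate 3), with a median of -0.53, and the count of lower members was 14 with the replicate block. Acta2, smooth muscle actin, read 7.78, 7.75 and 8.05 in Dex and 11.34, 10.93 and 11.55 in TNF (-3.41 ± 0.17). Pdgfrb, a growth factor receptor of fibroblasts, read 9.68, 9.68 and 9.99 in Dex, 11.94, 11.88 and 11.86 in TNF and 11.33 ± 0.14 in the control (-2.11 ± 0.11). The summed log2 level of the 32 markers with a probe set was 238.7 to 239.7 on the Dex arrays and 253.2 to 256.0 on the TNF arrays. Leukocyte markers were mostly dim: of 21 with a probe set, 4 had means above 5.32 in Dex and 5 in TNF, and their summed levels were 99.1 to 102.1 in Dex and 109.1 to 112.5 in TNF. Of the 5 tested, 4 were lower in Dex, namely S100a8 (-3.81 ± 0.25), Csf1r (-2.15 ± 0.33), Cd14 (-1.92 ± 0.15) and Cd68 (-1.48 ± 0.15). Csf1r lost its call with the probe set brightest over all 21 arrays (-0.68, adjusted p = 0.0643, in a range of 6.07e-09 to 0.0643). Endothelial markers with a mean above 5.32 numbered 5 of 15 in Dex and 6 of 15 in TNF, with summed levels of 73.1 to 74.3 and 75.3 to 76.8. All groups are cultures of 1 cell line, so these levels do not count leukocytes or endothelial cells. What part undifferentiated cells of the line have in the other differences was not tested.

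Insulin signalling genes, to which the aim of the series points, were divided. Of 33 tested, 9 were higher in Dex (27.3%) and 6 lower (18.2%), against 14.6% and 14.2% of all genes. The median was 0.05 (0.10 without TNF replicate 3), and 4 or 5 were higher without Dex replicate 1, Dex replicate 2 or TNF replicate 1. Irs1, the main docking protein of the insulin receptor in fat cells, read 11.93, 11.95 and 11.71 in Dex and 12.22, 12.35 and 11.95 in TNF, both below the control mean of 12.75 ± 0.10. The groups overlapped and its -0.31 ± 0.12 was not called (adjusted p = 0.103). With the replicate block the same difference was called (0.042), as was -0.42 without TNF replicate 3 (0.00536), in a range of 0.000129 to 0.613 over all alternatives. Insr, the insulin receptor gene, read 9.90, 9.92 and 9.96 in Dex and 9.53, 9.66 and 9.62 in TNF. Its 0.32 ± 0.09 (adjusted p = 0.0332) was lost without any one array other than TNF replicate 3, at 0.28 to 0.35 with adjusted p between 0.061 and 0.127, and alternatives ranged from 4.12e-05 to 0.57. Foxo1, the transcription factor that insulin inactivates, differed more clearly on the probe set used, at 10.76, 10.87 and 10.59 in Dex and 9.42, 9.52 and 9.72 in TNF (1.19 ± 0.12). Its 3 other bright probe sets ranged from 0.11 to 1.3. Grb14, an inhibitor of the insulin receptor, read 6.30, 6.40 and 6.52 in Dex and 8.28, 8.0 and 8.59 in TNF (-1.89 ± 0.16). Igf1, an insulin-like growth factor, read 9.74, 9.94 and 9.34 in Dex and 11.50, 11.48 and 11.85 in TNF (-1.94 ± 0.17), and TNF was level with the control mean of 11.51 ± 0.26. Phlda1, a pleckstrin homology domain protein, differed by -2.98 ± 0.20.

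The 2 main glucose transporters of adipocytes differed in opposite directions. Slc2a4 encodes the insulin-responsive GLUT4 and read 10.81, 10.83 and 10.75 in Dex, 9.68, 9.82 and 9.62 in TNF and 10.85 ± 0.11 in the control. It was therefore 2.12-fold higher in Dex than in TNF (1.09 ± 0.09; adjusted p = 0.000125) and level with the control. Slc2a1, the gene for the basal transporter GLUT1, read 9.86, 10.06 and 9.62 in Dex, 11.13, 11.47 and 11.88 in TNF and 11.03 ± 0.18 in the control, a difference of -1.65 ± 0.20. Hk1, a hexokinase found in most tissues, went with Slc2a1 at -1.62 ± 0.22. Pygl, the liver form of glycogen phosphorylase, read 8.89, 9.21 and 8.14 in Dex and 4.74, 5.10 and 3.73 in TNF (4.23 ± 0.38), with the control at 7.58 ± 0.03 and TNF near background. Ppp1r3c, which targets a phosphatase to glycogen, differed by 1.74 ± 0.19. Over 20 tested genes of glucose uptake and glycogen, 8 were higher in Dex and 4 lower, with a median of 0.27. Without TNF replicate 3, 9 were higher and 6 lower, with a median of 0.24.

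Further down, 11 of 26 genes of glycolysis, pyruvate use and glyceroneogenesis were higher in Dex and 3 lower (5 without TNF replicate 3, and 5 with the replicate block), with a median of 0.28 (0.16 without TNF replicate 3). Pdhb and Dlat, subunits of the pyruvate dehydrogenase complex, differed by 1.49 ± 0.20 and 1.6 ± 0.12. Dlat read 11.73, 11.82 and 11.74 in Dex and 10.28, 10.29 and 9.92 in TNF, without overlap. Pdk4, a kinase that inhibits the complex, was higher in Dex too, at 8.42, 8.65 and 8.54 against 7.17, 7.16 and 7.81 in TNF (1.15 ± 0.19). Pfkl, the liver form of phosphofructokinase, differed by -1.59 ± 0.27. Pck1, the key enzyme of glyceroneogenesis, read 11.39, 11.39 and 11.15 in Dex and 10.77, 10.98 and 10.29 in TNF, both below the control mean of 12.15 ± 0.23. Its 0.63 ± 0.18 (adjusted p = 0.0325) was lost without any Dex replicate or TNF replicate 1, at 0.59 to 0.71 with adjusted p between 0.06 and 0.114, and alternatives ranged from 4.13e-06 to 0.372. The other bright probe set of Pck1 gave 2.14.

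Lipid droplet and lipolysis genes differed in both directions, with 10 of 24 tested higher in Dex and 6 lower and a median of 0.27 (0.16 without TNF replicate 3). Pnpla2, the adipose triglyceride lipase that starts lipolysis, read 12.48, 12.48 and 12.31 in Dex, 10.63, 10.70 and 10.63 in TNF and 11.27 ± 0.02 in the control. The difference of 1.77 ± 0.09 (adjusted p = 6.85e-06) thus had the agents on opposite sides of the control mean. Lipe, hormone-sensitive lipase, read 11.83, 11.80 and 11.69 in Dex and 10.59, 10.82 and 10.09 in TNF (1.27 ± 0.18). Cidec, which promotes the growth of large droplets, read 13.64, 13.60 and 13.34 in Dex and 11.66, 12.09 and 10.09 in TNF (2.25 ± 0.45). TNF replicate 3 was the lowest array for Lipe and Cidec, and neither gene's groups overlapped. Hcar2 and Hcar1, receptors for hydroxy acids that restrain lipolysis, were lower in Dex. Hcar2 read 6.03, 5.97 and 5.71 in Dex, 9.43, 9.59 and 8.71 in TNF and 8.65 ± 0.23 in the control (-3.34 ± 0.23), and Hcar1 differed by -1.71 ± 0.14.

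Of 30 genes for fatty acid and triglyceride synthesis, 15 were higher in Dex and 5 lower, with a median of 0.56. Without TNF replicate 3, 19 were higher and 6 lower, with a median of 0.39. Fasn, fatty acid synthase, read 12.44, 12.47 and 12.48 in Dex, 11.37, 11.38 and 11.23 in TNF and 12.54 ± 0.08 in the control, a difference of 1.14 ± 0.08 without overlap. Thrsp, a regulator of lipogenesis, differed by 2.38 ± 0.22, and Lpin1, a phosphatidate phosphatase of triglyceride synthesis, by 2.11 ± 0.10. Gpat4, which adds the first acyl chain to glycerol phosphate, differed by 1.45 ± 0.18. Elovl6, an elongase of saturated fatty acids, went the other way at 6.37, 6.79 and 6.87 in Dex and 8.72, 7.99 and 9.28 in TNF (-1.99 ± 0.31). In fatty acid uptake and binding, 6 of 18 were higher in Dex (3 without Dex replicate 3) and 3 lower, with a median of 0.21. The acyl-CoA synthetase genes Acsl5 and Acsl4 differed by -1.20 ± 0.11 and -1.02 ± 0.10, and Angptl8, an inhibitor of lipoprotein lipase activity, by -1.24 ± 0.23. Of 26 genes of fatty acid oxidation, 10 were higher in Dex and 5 lower (3 without Dex replicate 3, TNF replicate 1 or TNF replicate 2), with a median of 0.36. Without TNF replicate 3, 15 were higher and 5 lower, with a median of 0.3. Acadm, medium-chain acyl-CoA dehydrogenase, read 13.93, 13.91 and 13.85 in Dex and 12.90, 12.91 and 12.29 in TNF (1.19 ± 0.16). Cpt1a, the liver form of the enzyme that admits fatty acids to mitochondria, differed by -1.24 ± 0.15. Of 26 cholesterol genes, 5 were higher in Dex (19.2%) and 6 lower (23.1%), against 14.6% and 14.2% of all genes, with a median of 0.01 that became -0.12 without TNF replicate 3. Those counts became 1 and 1 without Dex replicate 1, 1 and 2 without Dex replicate 2, and the lower count was 3 without Dex replicate 3 and 2 without TNF replicate 1. Cyp51, a demethylase of sterol synthesis, was 0.94 ± 0.14 higher in Dex.

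Mitochondrial genes were higher in Dex by small amounts that many members shared. Of 41 genes of the TCA cycle and electron transport, 27 were higher in Dex and 1, Cox7a1, lower, with a median of 0.45. The higher count became 16 without Dex replicate 1, 34 without TNF replicate 3, which leaves the median at 0.42, and 11 with all 21 arrays in the fit, where 6.11% of all genes were called higher. The lower count was 3 without TNF replicate 3. The list's mean level was 12.85 on each Dex array, 12.44, 12.48 and 12.31 on the TNF arrays and 12.92 to 12.93 on the control arrays, so the TNF arrays lay below the control arrays. Mdh1, a malate dehydrogenase, read 14.04, 14.02 and 13.97 in Dex and 13.23, 13.21 and 12.42 in TNF (1.06 ± 0.20). Breakdown of the branched-chain amino acids leucine, isoleucine and valine, a major use of these nutrients in fat, differed more. Of 22 tested, 19 were higher in Dex and 0 lower (1 without TNF replicate 3), with a median of 0.96 (0.83 without TNF replicate 3), and 10 were higher with all 21 arrays in the fit. The mean level was 11.25, 11.25 and 11.15 on the Dex arrays, 10.42, 10.50 and 9.99 on the TNF arrays and 11.04 to 11.10 on the control arrays. Bcat2, the mitochondrial transaminase of the first step, read 9.96, 9.95 and 8.98 in Dex and 7.89, 8.0 and 7.14 in TNF (1.96 ± 0.32). Hibch, an enzyme of valine breakdown, read 11.88, 11.98 and 11.48 in Dex and 10.63, 10.79 and 10.01 in TNF (1.31 ± 0.22). In these lists TNF replicate 3, the array with the high 3′ to 5′ difference, was the lowest of the 6. Without it the medians were 0.42 and 0.83, and 34 and 20 genes were higher in Dex. The cause of the low levels on that array was not tested. Of 10 thermogenic genes, 4 were higher in Dex and 1 lower (2 without TNF replicate 3), with a median of 0.18. Cidea, a droplet protein typical of brown fat, differed by 1.44 ± 0.20, and Esrra, a nuclear receptor that acts with Ppargc1b, by 0.76 ± 0.14.

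**Figure D4:**
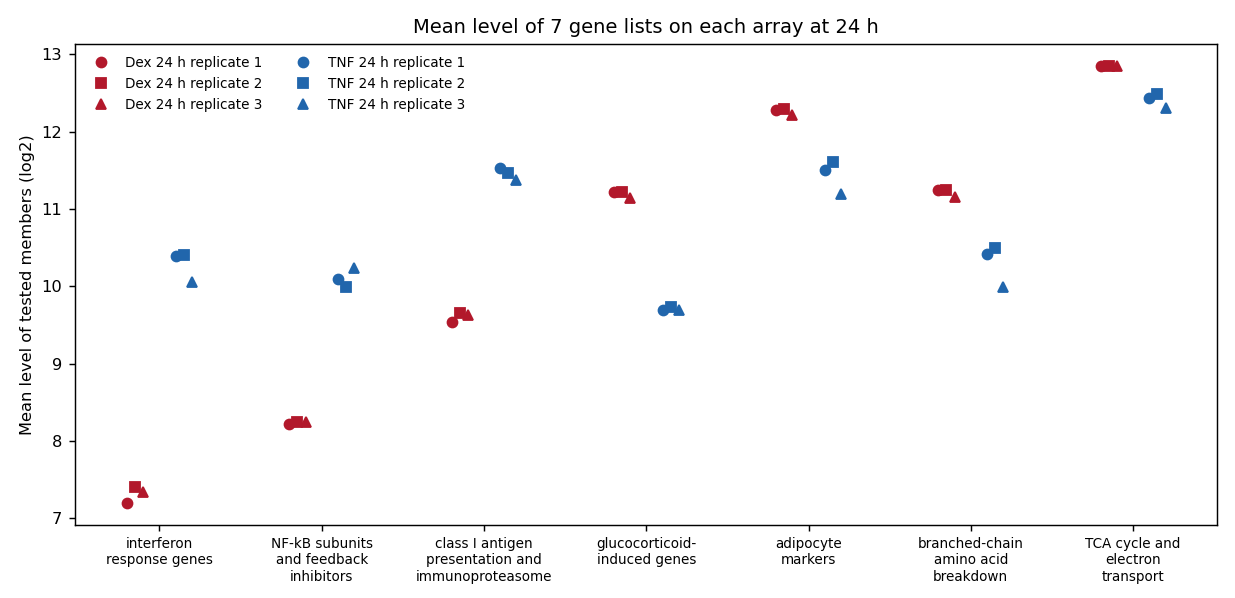
Mean log2 level of the tested members of 7 gene lists on each array, Dex in red on the left and TNF in blue on the right of each pair, with the marker shape giving the replicate number. The groups are apart in all 7 lists, and TNF replicate 3 (blue triangle) is the lowest TNF array for interferon-responsive genes at 10.06, class I presentation at 11.37, adipocyte markers at 11.19, branched-chain amino acid breakdown at 9.99 and the TCA cycle and electron transport at 12.31.

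Matrix genes leaned toward TNF. Of 50 collagens and matrix proteins, 21 were lower in Dex (12 without Dex replicate 1) and 6 higher (10 without TNF replicate 3), with a median of -0.21. Tnc, the adhesion-modulating tenascin C, read 4.45, 4.17 and 4.31 in Dex and 7.33, 7.13 and 8.11 in TNF (-3.22 ± 0.24), near background in Dex. Mgp, matrix Gla protein, differed by -2.84 ± 0.28, while Ogn, the proteoglycan osteoglycin, differed by 1.92 ± 0.16. Among 34 enzymes and inhibitors that act on matrix, 17 were lower in Dex and 6 higher, with a median of -0.57. The collagenase inhibitor genes Timp1 and Timp4 were on opposite sides. Timp1 read 7.87, 7.93 and 7.85 in Dex and 12.12, 11.84 and 13.01 in TNF (-4.44 ± 0.27), and Timp4 read 9.59, 9.75 and 9.33 in Dex and 6.27, 6.65 and 6.40 in TNF (3.12 ± 0.15). The control was 8.37 ± 0.13 for Timp1 and 9.71 ± 0.09 for Timp4, close to Dex in both. Mmp3, stromelysin, differed by -4.25 ± 0.43, with TNF arrays at 9.73, 9.11 and 10.89. Lox, which cross-links collagen, was higher in Dex at 12.21, 12.27 and 12.69 against 10.35, 10.23 and 10.24 in TNF (2.12 ± 0.14). Of 32 genes of TGF-beta, activin, BMP and Wnt signalling, 13 were lower in Dex (8 without Dex replicate 1 or Dex replicate 2) and 1 higher (0 without Dex replicate 2), with a median of -0.34. Inhbb, an activin subunit, read 6.37, 6.44 and 6.63 in Dex and 8.91, 8.96 and 8.68 in TNF (-2.37 ± 0.12), both below the control mean of 9.96 ± 0.21. Its other bright probe set gave -0.16.

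Immediate early genes, which respond to signalling within minutes in most cells, still differed at 24 h. Of 37 tested with the Kruppel-like factors, 16 were lower in Dex and 6 higher (3 without Dex replicate 1 or Dex replicate 2), with a median of -0.12 (-0.25 without TNF replicate 3). Junb, an AP-1 subunit, read 5.43, 5.04 and 5.31 in Dex and 8.58, 8.25 and 8.19 in TNF (-3.08 ± 0.15). The control at 5.26 ± 0.19 was level with Dex, but both means were near background, where a change can go unseen. Egr2, a zinc finger factor, differed by -2.51 ± 0.11, with Dex near background. Gem, a small GTPase, read 6.62, 6.30 and 6.78 in Dex and 9.55, 9.36 and 7.53 in TNF (-2.25 ± 0.48), with TNF replicate 3 well below its mates. Among 19 MAP kinase phosphatases and feedback inhibitors, 6 were lower in Dex (3 without Dex replicate 1) and 5 higher, with a median of -0.27. Without TNF replicate 3, 9 were lower and 5 higher, with a median of -0.37. Dusp6, a phosphatase of ERK, differed by -2.50 ± 0.12, whereas Dusp14 differed by 2.74 ± 0.29. Of 17 clock genes, 8 were higher in Dex and 2 lower, with a median of 0.15 (0.06 without TNF replicate 3). The 8 became 4 without Dex replicate 1 or 2 and 5 without Dex replicate 3 or TNF replicate 1. Cry1, a repressor of the clock, differed by -0.81 ± 0.11.

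Stress, lipid mediator, growth and death genes completed the comparison. Of 35 genes of oxidant defence and NADPH oxidase, 11 were lower in Dex and 9 higher (5 without Dex replicate 1, Dex replicate 3 or TNF replicate 1), with a median of -0.09. Sod2, the mitochondrial superoxide dismutase that NF-kB induces, read 12.73, 12.75 and 12.62 in Dex and 13.90, 13.86 and 14.09 in TNF (-1.25 ± 0.09). Gstt1, a glutathione transferase, differed by -3.41 ± 0.21. Of 18 genes of prostaglandin and steroid metabolism, 6 were lower in Dex and 5 higher, with a median of -0.01 (-0.08 without TNF replicate 3). Pla2g4a, the phospholipase that releases arachidonic acid, differed by -2.22 ± 0.14, and Ptgds, a prostaglandin D synthase, by 2.27 ± 0.13. Of 32 cell cycle genes, 9 were lower in Dex (28.1%) and 7 higher (21.9%, 4 genes without Dex replicate 1), with a median of -0.26. Without TNF replicate 3, 12 were lower and 8 higher. Of all genes, 14.2% were lower and 14.6% higher. Cdkn1a, the cell cycle inhibitor p21, read 11.47, 11.57 and 11.55 in Dex and 9.92, 9.82 and 10.37 in TNF (1.49 ± 0.15), and Ccnd1, cyclin D1, 8.44, 8.51 and 8.52 in Dex and 9.55, 9.72 and 10.03 in TNF (-1.28 ± 0.14). Of 25 cell death regulators, 12 were lower in Dex (15 without TNF replicate 3) and 4 higher, with a median of -0.33. The 4 became 1 or 2 without any one array other than TNF replicate 3, without which there were 6. Casp4, an inflammatory caspase, read 6.42, 6.42 and 6.33 in Dex and 10.61, 10.56 and 10.61 in TNF (-4.20 ± 0.09), and Fas, a death receptor, differed by -2.44 ± 0.28. Of 30 genes of the unfolded protein response and chaperones, 7 were higher in Dex (23.3%) and 3 lower, with a median of 0.06. Called in either direction were 33.3% of the list, against 28.8% of all genes (14.6% higher and 14.2% lower). Without TNF replicate 3 the counts were 11 and 8 and the median 0.11, where 24.0% of all genes were higher and 19.1% lower. The lower count was 1 without any Dex replicate or TNF replicate 1. Of 25 transporters, 8 were higher in Dex and 4 lower (2 without Dex replicate 1, Dex replicate 2 or TNF replicate 1), with a median of 0.00 (0.07 without TNF replicate 3). The glutamine and neutral amino acid transporter gene Slc1a5 read 12.13, 12.15 and 11.56 in Dex, 10.44, 10.53 and 10.32 in TNF and 10.21 ± 0.11 in the control (1.51 ± 0.17).

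The same 2 agents had been compared at 2 h, on other arrays, and 1599 genes (13.8%) were called there. TNF replicate 2 at 2 h had a 3′ to 5′ difference of 0.736, against 0.0830 to 0.245 on the other 5 arrays of that time. Of the 1599 genes, 919 were also called at 24 h, which is 57.5% of the calls at 2 h and 27.5% of those at 24 h, with 858 in the same direction and 61 opposed. Across the 11591 genes the differences at 24 h and 2 h correlated at 0.572, where the genes share probe and normalisation effects and are not independent. The difference between the times was itself tested as an interaction on the 12 arrays, and 1989 genes (17.2%) were called, 879 more positive at 24 h (7.58%) and 1110 more negative (9.58%). Without TNF 2 h replicate 2 the count was 2252. Mitochondrial genes were among those that diverged late by count: of the 41 of the TCA cycle and electron transport and the 22 of branched-chain amino acid breakdown, 0 were called at 2 h in either direction, with medians of 0.02 and 0.08. For interferon-responsive genes 20 of 43 were lower in Dex at 2 h, with a median of -0.54.

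The interaction with time had its largest values in interferon-induced genes, Ccl8 and a pair of genes that are high in Dex. Oasl2 averaged 4.86 in Dex and 10.76 in TNF at 24 h, against 6.23 ± 0.69 in Dex and 6.12 ± 0.63 in TNF at 2 h (SD, n = 3), so that the difference was 0.11 at 2 h and the interaction -6.01 ± 0.46 (adjusted p = 7.78e-07). Cxcl11, a further ligand of CXCR3, had an interaction of -5.14 ± 0.29, and Ccl8 of -5.33 ± 0.50. Apoc3 averaged 12.13 in Dex and 5.71 in TNF at 24 h, against 8.72 ± 0.14 and 7.43 ± 0.40 at 2 h, an interaction of 5.13 ± 0.36, and Cyp2e1 gave 5.12 ± 0.32. For other genes the difference between the times was not called. Cxcl10 differed by -7.67 at 24 h and -8.18 at 2 h (interaction 0.51 ± 0.34, adjusted p = 0.342), and Fkbp5 by 3.62 at 24 h and 4.02 at 2 h (-0.40 ± 0.18, 0.14). Still others were closer together at 24 h. Irf1 differed by -1.81 at 24 h and -5.52 at 2 h, and Errfi1 by 2.34 at 24 h and 5.44 at 2 h, with interactions of 3.71 ± 0.14 and -3.11 ± 0.18. Among the 61 genes with opposed calls, Snai2, a repressor of epithelial genes, was lower in Dex at 24 h (8.76 in Dex and 9.80 in TNF) and higher at 2 h (11.20 ± 0.13 in Dex and 8.79 ± 0.26 in TNF), an interaction of -3.45 ± 0.20. Plod2, a collagen lysyl hydroxylase, did the same, at -1.47 and 1.45 (interaction -2.92 ± 0.26), and Dennd2d the reverse, at 0.90 and -2.20 (3.11 ± 0.24).

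**Figure D5:**
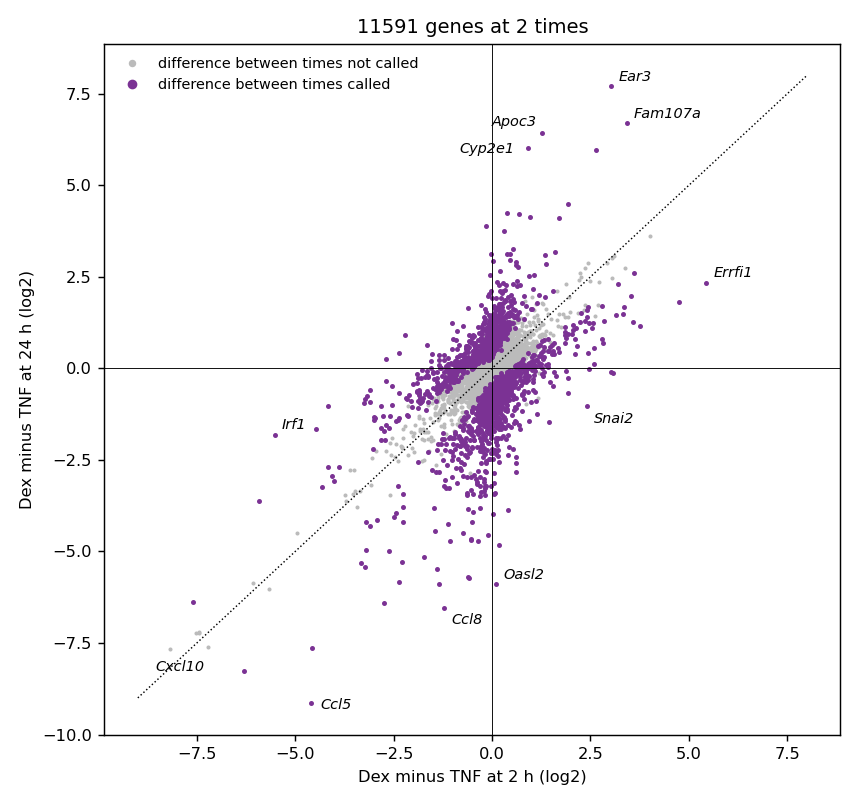
Difference Dex minus TNF at 24 h (vertical axis, log2) against the difference at 2 h (horizontal axis, log2) for 11591 genes; purple points are the 1989 genes whose difference between the times was called, and the dotted line marks equal differences. Oasl2 (0.11) and Ccl8 (-1.22) lie close to 0 on the horizontal axis and at -5.90 and -6.55 on the vertical one, Cxcl10 lies near the dotted line, and Snai2 lies to the right of 0 and below it.

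At 6 d, 1 TNF array, replicate 2, stood apart from its mates (correlation 0.896 to 0.898, and a 3′ to 5′ difference of 2.00), so values are given with and without it. Dex replicate 2 at 6 d also had a high 3′ to 5′ difference, at 0.777, against 0.0210 to 0.112 on the other 4 arrays of that time, and correlated with its mates at 0.992 to 0.993. With TNF replicate 2, 201 genes (1.73%) were called at 6 d, 181 of them also called at 24 h, which is 90.0% of the calls at 6 d and 5.42% of those at 24 h. Without that TNF array, 3743 genes (32.3%) were called and 2177 also at 24 h (58.2% and 65.2%), 2137 in the same direction and 40 opposed. The interaction of 24 h with 6 d was called for 68 genes (0.587%) with that array and for 744 (6.42%) without it, 423 more positive at 24 h (3.65%) and 321 more negative (2.77%). With the replicate numbers as a block it was called for 5 genes, all more negative at 24 h. Without 1 array other than that one, the lowest counts were 17 without Dex 6 d replicate 1 and 18 without Dex 24 h replicate 1, and 24 were called without Dex 6 d replicate 2. Cxcl9 averaged 4.4 in Dex and 12.67 in TNF at 24 h, against 4.08 ± 0.15 in Dex and 6.82 ± 1.47 in TNF at 6 d (7.66 in TNF without replicate 2). Its interaction was -5.54 ± 0.76 (adjusted p = 0.00966), and -4.70 ± 0.24 (8.13e-07) without the array. Cxcl10 gave -5.09 ± 0.92 (0.037) and -4.09 ± 0.34 (2.67e-05). With the replicate block neither call held (adjusted p = 0.081 for Cxcl9 and 0.126 for Cxcl10). The call of Cxcl10 was also lost without any 1 of the 3 Dex arrays at either time or of the 3 TNF arrays at 24 h, at -4.94 to -5.33 with adjusted p between 0.0792 and 0.134. Over all alternatives the adjusted p ran between 8.13e-07 and 0.081 for Cxcl9 and between 2.67e-05 and 0.134 for Cxcl10. Ccl2 gave -2.94 ± 1.03, which was not called (0.423), and -1.75 ± 0.17 (8.83e-05) without the array. Rsad2 gave -3.51 ± 0.28 (0.000373) and -3.58 ± 0.25 (7.73e-06), and its call held with the block (0.0296). Retreg1, a receptor for the autophagy of endoplasmic reticulum, was lower in Dex at 24 h (7.93 in Dex and 8.84 in TNF) and higher at 6 d (9.22 ± 0.17 in Dex and 6.22 ± 0.98 in TNF), with interactions of -3.91 ± 0.53 (0.00966) and -3.35 ± 0.18 (8.13e-07) without the array, and 0.0841 with the block, the highest adjusted p over its alternatives. Car3, a carbonic anhydrase abundant in fat cells, was lower in Dex at 24 h by -1.53 ± 0.22 and at 6 d by -4.86, or -5.22 ± 0.31 without replicate 2, with interactions of 3.33 ± 0.54 (0.0241) and 3.68 ± 0.42 (0.000227). With the block its interaction was not among the calls. Without TNF replicate 2 at 6 d, 33 of 50 collagens and matrix proteins were lower in Dex at 6 d and 1 higher, with a median of -1.01, where 16.6% of all genes were lower and 15.7% higher. At 24 h without TNF replicate 3 they numbered 24 lower and 10 higher, with a median of -0.31, and the difference between times was not tested for the list.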

How the data were processed

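The files hold expression on Affymetrix mouse arrays as deposited by the authors in log2 units; RMA normalisation is named in the submitters' processing notes, with no version. The deposited log2 values of 45101 probe sets were used unchanged. Of these, 34958 have 1 gene, 932 several and 9211 none in the platform annotation, and 34754 symbols were updated through Entrez IDs. The probe set with the highest mean over the 6 arrays stood for a gene. Other bright probe sets of the same gene can give a smaller or larger difference, and they are given here for some genes only. Genes with at least 3 of 6 values above 5.32 were tested with limma 3.58.1 (R 4.3.3; lmFit, eBayes with trend, 4 residual degrees of freedom), two-sided, Benjamini-Hochberg at 0.05, and interactions on 12 arrays. The limma script was tested on simulated data. Because exact permutation of 3 against 3 cannot go below p = 0.1, no such test was used. The number of arrays limits the precision.

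Same-numbered Dex and TNF arrays deviated together (r = 0.208, 0.243 and 0.269), each above the 0.1 required here to treat the numbers as pairs, although different-numbered pairs ranged from -0.293 to 0.218 and Dex 1 with TNF 2, at 0.218, exceeded Dex 1 with TNF 1. The main test and the interactions were nevertheless fitted without pairs, and fits with the replicate block are given as alternatives. Genes are named by a fixed rule. It takes set genes, the 12 largest differences each way among called genes without group overlap, up to 4 per list and the largest interactions. Genes added to those for description (Ccl25, Irf5, Klf4) were chosen after their values were seen. The members and the 40 lists were chosen with earlier results of these data known. Of the listed genes, 80 were not matched and are not analysed here.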

Additional observations from a re-analysis of the deposited data

Results flagged for a closer look

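Results are listed here because the difference between Dex and TNF at 24 h differed, by an interaction test, from that at another time. The interaction of 24 h with 2 h was called for 1989 genes. Among the named genes it was -6.01 for Oasl2, -5.33 for Ccl8, -5.14 for Cxcl11, 5.13 for Apoc3, 5.12 for Cyp2e1 and -5.10 for Zbp1 (log2). Among genes called in opposite directions at the 2 times it was -3.45 for Snai2, -3.20 for Plac8, 3.11 for Dennd2d and -2.92 for Plod2. The interaction of 24 h with 6 d was called for 68 genes, and was -5.54 for Cxcl9, -5.09 for Cxcl10, -3.91 for Retreg1, -3.71 for Egr2, -3.67 for Melk and -3.51 for Rsad2. The second set depended on single arrays and on the pairing. Without the TNF array at 6 d that stood apart, 744 genes were called. With the replicate block 5 were, and of the 6 named genes only Rsad2 was called (adjusted p = 0.0296), the others lying at 0.081 for Cxcl9, 0.126 for Cxcl10, 0.0841 for Retreg1, 0.069 for Egr2 and 0.121 for Melk.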

How the results depend on the processing

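The count of 3339 genes moved to 1610 with all 21 arrays in the fit, which takes in the outlying TNF array at 6 d, and to 3981 without that array. It was 7260 with array weights, 4931 with the 3′ to 5′ difference as a covariate and 963 with an added limit of a 2-fold change. Leaving out 1 array gave 2099 to 4997. Under a share of higher calls of 50.7%, cyclic loess gave 43.0% (1478 higher in Dex, 1958 lower). With the replicate numbers as a block, the pairing gave 3522 calls at 24 h. It made Irs1 a call (adjusted p = 0.042), ended those of Lpl (0.0851) and Ccl25 (0.078) and changed no other named call at 24 h. Other filters, scalings, probe set rules and moderation gave 3214 to 3436. Of 185 named genes called, 160 were called under every alternative that tested them, 18 or 19 each, and 25 lost the call under at least 1: 16 with all 21 arrays and 15 without 1 array. No named difference reversed.

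The interaction of 24 h with 2 h was called for 1989 genes, 540 with all 21 arrays, 2108 with the block and 1490 to 2466 without 1 array. That of 24 h with 6 d was called for 68 genes, 264 with all 21 arrays, 39 with median centring, 43 without the filter, 5 with the block and 17 to 744 without 1 array, the 744 without TNF 6 d replicate 2. With the block, the adjusted p in this interaction was 0.081 for Cxcl9, 0.126 for Cxcl10, 0.0841 for Retreg1, 0.069 for Egr2 and 0.121 for Melk. The cause of these changes was not tested.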

Other observations

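Of 2677 tested probe sets without a single gene name, 541 differed between Dex and TNF at 24 h by limma's adjusted p, and they entered no list. In 49 of the genes called higher in Dex the TNF mean was below 5.32, and in 155 of those called lower the Dex mean was. Depp1, a FOXO target, Ctla2a, a cathepsin inhibitor, and Adcyap1r1, the receptor for the peptide PACAP, were higher in Dex by 3.89 ± 0.20, 4.5 ± 0.21 and 4.11 ± 0.16 log2 (SE). Their Dex means of 10.56, 10.85 and 11.15 stood against TNF means of 6.68, 6.34 and 7.04 and control means of 6.71, 6.19 and 7.56. The 2 other bright probe sets of Adcyap1r1 gave 1.82 and 1.86.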
